A study of Bos taurus with 12 samples.

Results

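The genes described here are 10 regulators of energy metabolism: the nuclear receptors ESRRA, PPARA, PPARD, PPARG, RXRA and NR1H3, the coactivators PPARGC1A and PPARGC1B, and the transcription factors NRF1 and TFAM. They were listed by symbol, and an array probe was taken for a gene when the RefSeq accession given with the probe belonged to that symbol in the bovine RefSeq table. In this way 8 of the 10 genes were found on 16 of the 43653 probes of the array, among 12639 genes that could be named. RXRA and PPARGC1B were not matched and are not analysed here.

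Mammary gland (MG) gene expression was measured in 12 multiparous Holstein cows in early lactation (24 ± 3 d in milk), with 1 one-color array per cow. The 6 control cows (CONT) had free access to a lactation diet, and the 6 restricted cows (REST) received for 4 d the same ration diluted with barley straw (48% of dry matter). All 12 cows, CONT included, received 50 µg of lipopolysaccharide (LPS), a bacterial cell wall component that causes acute inflammation, into 1 healthy rear gland of the udder on d 3, and the MG was biopsied 24 h later. The question is how undernutrition changes gene expression during this inflammation, and no gland without LPS was measured. A biopsy is a mixture of cells, so that fewer cells of a type and less RNA per cell cannot be told apart in any value below.

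Nuclear receptors are transcription factors whose activity depends on small lipids or on partner proteins. PPARA, PPARD and PPARG bind fatty acids and act on DNA together with RXRA, ESRRA (ERR alpha) has no known natural hormone and depends on the coactivators PPARGC1A (PGC-1 alpha) and PPARGC1B, and NR1H3 (LXR alpha) responds to oxidized cholesterol. ESRRA and PPARGC1A are known for switching on mitochondrial respiration and fatty acid oxidation, NRF1 and TFAM carry that program to the genes of the respiratory chain and to mitochondrial DNA, and PPARG and NR1H3 are studied in the lactating gland as regulators of milk fat synthesis.

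Signals are given as log2 intensity minus the 75th percentile of the same array, so that a negative value lies below that percentile, and log2 FC is REST minus CONT. On the arrays, 57.64 to 78.17% of the probes were well above background by the call of the scanner software. The arrays lay on 3 slides, slide 1 with 3 CONT and 1 REST, slide 2 with 1 CONT and 3 REST, and slide 3 with 2 of each. Probes of 1 gene are numbered by brightness, and probe 1 stands for the gene. As a check of the tissue, 12 of 12 measured markers of secretory epithelium were above background on every array. Precision is limited by having 6 arrays per diet.

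No regulator passed the threshold of 0.05 after adjustment over all probes, and the same was true of every probe of the array: 0% were called with the Westfall-Young and 0% with the Benjamini-Hochberg adjustment of limma's test. All 16 probes had an adjusted p of 1 with both methods. Before adjustment, 3 of the 16 probes had a p under 0.05 in limma, against 2.62% of all probes, and each of the 3 was higher in REST, against 1.74% of all probes. They were both ESRRA probes and the faintest NR1H3 probe. By the brightest probe, 1 of the 8 genes, ESRRA, had an unadjusted p under 0.05 and a higher mean in REST, against 1.63% of all named genes. None of the 8 had such a p with a lower mean, against 1.01%. The mean was higher in REST for 7 of the 8 genes, all but PPARD, with PPARA near background included and with TFAM turning lower when slide was a block, whereas it was higher for 43.5% of all named genes. The median log2 FC of the 8 genes was 0.37 and that of all named genes was -0.034.

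**Figure D1:**
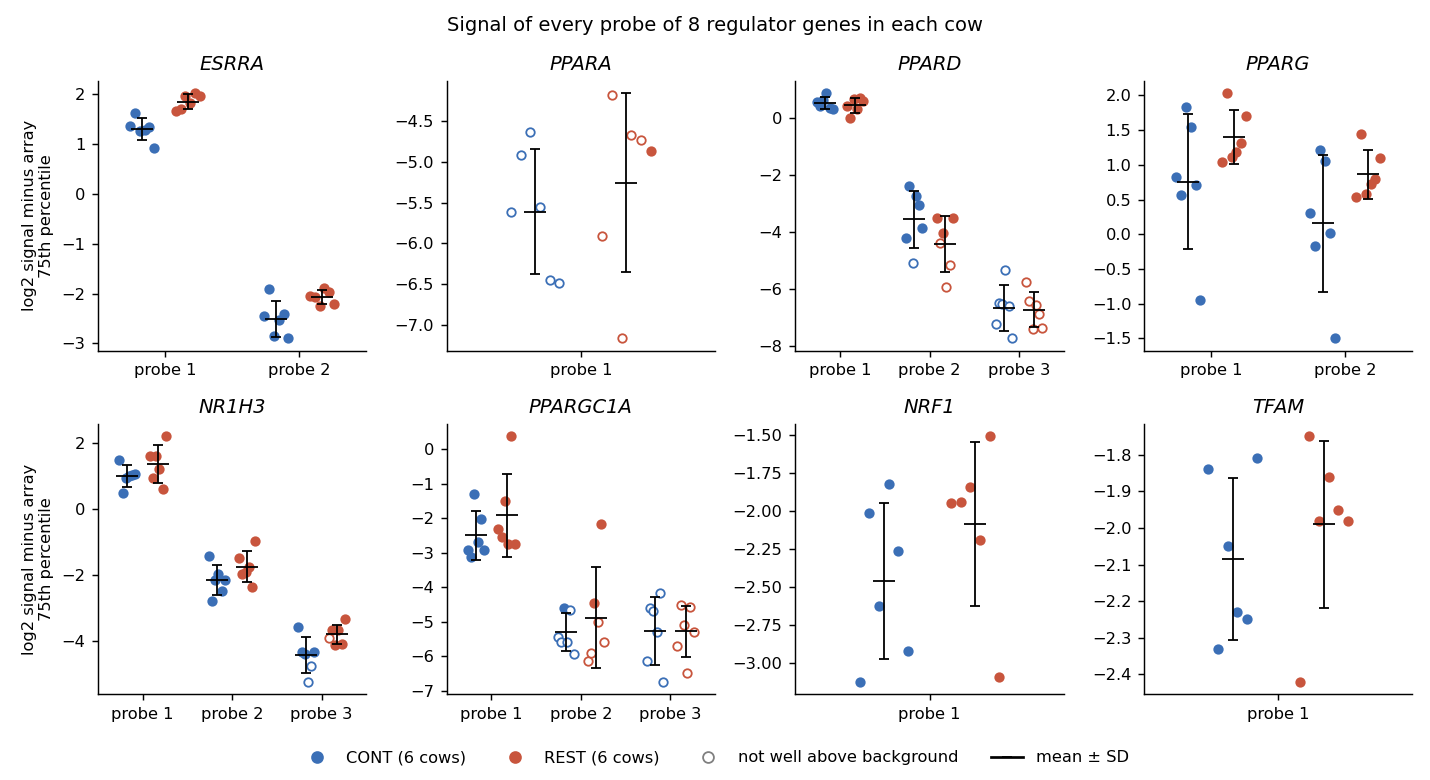
Log2 signal relative to the 75th percentile of the array for each of the 16 probes of the 8 measured regulators, with 1 point per cow (CONT blue, REST red), open where the probe was not well above background, and black bars for mean ± SD (n = 6). The 6 REST cows lie above the 6 CONT cows at ESRRA probe 1, and 1 REST cow lies far above the others at PPARGC1A probes 1 and 2.

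ESRRA, the orphan receptor that drives genes of mitochondrial respiration, was the one regulator whose values separated the diets. Its brighter probe had log2 signals of 0.92, 1.27, 1.28, 1.35, 1.37 and 1.63 in the CONT cows and of 1.66, 1.70, 1.82, 1.96, 1.97 and 2.02 in the REST cows. Every REST cow was above every CONT cow, although the lowest REST cow (0078) and the highest CONT cow (1076) were almost level. Such a complete separation with REST higher occurred in 0.0791% of all named genes. The log2 FC was 0.55 (standard error 0.15, 95% interval 0.23 to 0.88), a FC of 1.47, with an unadjusted p of 0.00255 in limma. In the exact permutation test p = 0.00216 (two-sided, not adjusted), the smallest value that 6 against 6 cows allow. ESRRA belongs to the genes that the study selected on these same arrays, so that its difference is not independent evidence.

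The fainter ESRRA probe gave the same direction with overlapping groups. The CONT cows lay between -2.90 and -1.91 with a median of -2.48, and the REST cows between -2.25 and -1.88 with a median of -2.05. All 6 REST cows exceeded the CONT mean but only cow 7043 exceeded the highest CONT cow, 1076. The log2 FC of 0.44 (standard error 0.18) had an unadjusted p of 0.0294 in limma and of 0.0216 in the exact permutation test. With each cow left out in turn its limma p was under 0.05 in 8 of 12 fits, and the highest was 0.0676 without CONT cow 0015. With normexp background correction the log2 FC was 0.28 (limma p of 0.184). CONT cow 8027 was the lowest of the 12 cows at both probes. Without this cow the log2 FC was 0.48 at the brighter and 0.36 at the fainter probe.

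ESRRA was also higher in REST within each slide. The difference of the means was 0.24 on slide 1, 0.48 on slide 2 and 0.87 on slide 3 for the brighter probe, and 0.24, 0.47 and 0.65 for the fainter one. These values rest on as few as 1 cow of a diet per slide and were not tested. With slide as a block in the model the log2 FC of the brighter probe was 0.57 (standard error 0.17).

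By the brightest probe, PPARG had the largest difference of the PPAR receptors measured above background, and it did not pass any test. PPARG directs fat cell formation and fat storage. The log2 signal of its brighter probe was -0.95, 0.56, 0.71, 0.83, 1.54 and 1.83 in CONT and 1.04, 1.11, 1.19, 1.31, 1.70 and 2.03 in REST. CONT was spread widely (SD 0.97, n = 6) and REST narrowly (SD 0.39, n = 6), and the groups overlapped, since CONT cows 0015 and 1024 were as high as the upper REST cows. The log2 FC was 0.64 (standard error 0.40, 95% interval -0.21 to 1.50), with a limma p of 0.128 and p = 0.156 in the exact permutation test.

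The second PPARG probe repeated the first cow by cow. It ranged from -1.50 to 1.21 in CONT, with a median of 0.17, and from 0.53 to 1.45 in REST, with a median of 0.76 and a log2 FC of 0.71 (standard error 0.39, limma p of 0.0965). After the diet means were removed, both probes had a Pearson r of 0.99 and a Spearman rho of 0.95 over the 12 cows. The permutation p was 1e-05 for either, the smallest that the 100000 reorderings can give, and 0.00011 after Benjamini-Hochberg adjustment over the 11 pairs of probes of 1 gene. The cows thus kept nearly the same order on both probes.

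CONT cow 8027 had the lowest PPARG signal and decided the size of the diet difference. Without this cow the log2 FC fell to 0.30 (limma p of 0.291) at the brighter and to 0.38 at the second probe, and without CONT cow 0015 it was 0.86 at the brighter probe (limma p of 0.0432). At the second probe it was 0.92 without CONT cow 0015 (limma p of 0.0326) and 0.89 without CONT cow 1024 (limma p of 0.0437). Cow 8027 was also the lowest cow for the summed signal of 12 adipocyte markers, at 27.1 times the 75th percentile of its array, against 90.1 to 322 in the other CONT cows and 126 to 440 in REST. It was lowest for endothelium markers too, at 9.57 against 32.6 to 42.3 in the other CONT cows and 31.8 to 52.6 in REST, summed over 10 genes measured on all arrays. For secretory epithelium it was again the lowest, at 1740 against 3090 to 5250 in the other CONT cows and 2473 to 6979 in REST. Not all lists were low in this cow. It was lowest for lymphocyte markers (39.7) but the highest CONT cow for macrophage and monocyte markers (46.9 against 31.2 to 37.1). It was also the highest CONT cow for fibroblast markers (72.7 against 54.8 to 71.4).

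No marker gene was called after adjustment, and 43.5% of all named genes had a higher mean in REST. Of the adipocyte markers 10 of 12 had a higher mean in REST and none reached an unadjusted p under 0.05. The average log2 signal of the list was 0.19 higher in REST with all cows and 0.00069 higher without cow 8027, a comparison chosen after the data were seen, where 7 of 12 markers had a higher mean in REST. Without this cow LEP (leptin), well above background in 4 CONT and 1 REST cows, was the marker with an unadjusted p under 0.05, and its mean was lower in REST. FABP4 made up 26.9 to 79.6% of the adipocyte sum in each cow. In all, 5 of the 12 markers (FABP4, CIDEA, GPD1, CFD and PNPLA2) were well above background on every array. PLIN1, the coat protein of fat droplets, was so in 1 CONT and 2 REST cows, AQP7 in none, and ADIPOQ was not matched. Whether the sum follows the share of fat cells was not tested. All 11 endothelium markers had a higher mean in REST, and 10 of 11 without cow 8027. The average of the 10 endothelium markers measured on all arrays was higher in REST by 0.48 on the log2 scale, and by 0.15 without this cow. VWF, a clotting protein of vessel walls, was the endothelium marker with an unadjusted p under 0.05. Its log2 FC was 0.79 (limma p of 0.0227), 0.50 without cow 8027 (limma p of 0.0164), and its limma p was 0.0516 without REST cow 1018.

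Of the secretory epithelium markers 10 of 12 had a higher mean in REST (median log2 FC 0.28), and 7 of 12 without cow 8027 (median 0.051), with no unadjusted p under 0.05. Of the 17 lymphocyte markers 8 had a higher and 9 a lower mean in REST (median log2 FC -0.036), and 2 had an unadjusted p under 0.05 with a higher mean, against 1.63% of all named genes. They were CD3D and the B cell marker MS4A1. CD3D (log2 FC 0.60) is a chain of the T cell receptor complex whose partner chains CD3E and CD3G had log2 FC of -0.093 and -0.27. MS4A1 was well above background in 0 CONT and 4 REST cows, and the groups overlapped (-6.46 to -4.81 in CONT, -5.38 to -4.05 in REST). With its CONT values raised to the lowest level that counted as signal, the fold of its means was 1.06, without an interval. Of the 9 fibroblast markers 7 had a lower mean in REST, 3 of them (LUM, COL1A2 and COL1A1) with an unadjusted p under 0.05, against 1.01% of all named genes with such a p and a lower mean. Without cow 8027 the mean was lower in REST for 9 of 9, again with 3 at such a p. The summed fibroblast signal was 54.8 to 72.7 in CONT and 26.5 to 76.4 in REST. Of the 8 skeletal muscle markers 6 had a lower mean in REST (median log2 FC -0.17). TNNT3 was the one with an unadjusted p under 0.05, with a log2 FC of 1.12 (limma p of 0.0168), and it was well above background in 4 CONT and 6 REST cows. The part of these cell types in the differences of ESRRA, PPARG or any other regulator was not tested.

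**Figure D2:**
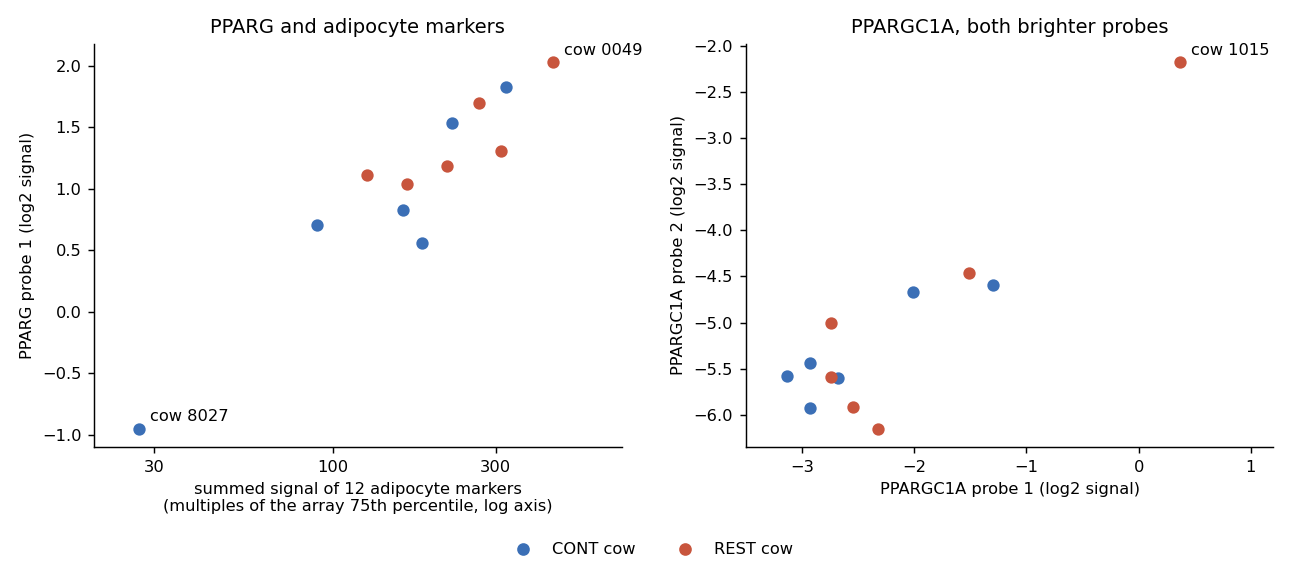
Left, log2 signal of PPARG probe 1 against the summed signal of 12 adipocyte markers on a log axis, 1 point per cow (CONT blue, REST red). Right, log2 signals of PPARGC1A probes 1 and 2 in the same cows. CONT cow 8027 is lowest on both axes at the left (-0.95 and 27.1), and REST cow 1015 is highest on both axes at the right (0.37 and -2.18).

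PPARD, a receptor linked to fatty acid oxidation in many tissues, was measured well by 1 of its 3 probes, where no difference was detected. Log2 signals went from 0.29 to 0.85 in CONT, with a median of 0.48, and from -0.0049 to 0.67 in REST, with a median of 0.49. The groups overlapped throughout, with REST cow 0049 the lowest of all. The log2 FC was -0.073 (standard error 0.16, limma p of 0.662), and its 95% interval of -0.43 to 0.28 excludes a FC above 1.21 or below 0.744. The second probe was well above background in 5 CONT and 3 REST cows only. It had a log2 FC of -0.86 (standard error 0.52, limma p of 0.124), -0.23 with slide as a block, -0.24 with normexp background correction and -0.55 without REST cow 7043. Without CONT cow 0015 it was -1.16 (limma p of 0.0343), the only fit with a cow left out that had such a p under 0.05. No array showed the third probe well above background, and no fold is given. As the mean over the 3 probes the log2 FC of PPARD was -0.33 (limma p of 0.23).

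PPARA, the receptor that drives fatty acid oxidation in the fasting liver, was at the limit of the array. Its single probe was well above background in none of the CONT cows and in 1 REST cow, 1058. Log2 signals went from -6.49 to -4.63 in CONT, with a median of -5.59, and from -7.17 to -4.18 in REST, with a median of -4.80. The REST cows were both the highest (0049) and the lowest (1018) of the 12. No fold is given, because the REST mean did not exceed the lowest level that counted as signal.

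NR1H3 gave a higher mean in REST on all 3 probes, with a test under 0.05 only on the faintest. Its brightest probe had log2 signals of 0.49, 0.94, 1.00, 1.04, 1.06 and 1.51 in CONT and 0.61, 0.96, 1.21, 1.61, 1.63 and 2.21 in REST. REST cows 1018, 0078 and 1058 were above every CONT cow, and the other REST cows lay within the CONT range. The log2 FC was 0.36 (standard error 0.26, limma p of 0.188 and p = 0.199 in the exact permutation test). It fell to 0.20 without REST cow 1058. The second probe, with a log2 FC of 0.41 (standard error 0.26), followed the first over the cows (Pearson r 0.89 and Spearman rho 0.80 after removal of the diet means, permutation p of 0.0005 and 0.00367, adjusted p of 0.00275 and 0.0202). Its log2 FC was 0.26 without REST cow 1058, 0.56 without CONT cow 9040 (limma p of 0.0472) and 0.25 with normexp background correction.

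The third NR1H3 probe was well above background in 4 CONT and 5 REST cows. Its CONT values lay between -5.23 and -3.58 (median -4.36), its REST values between -4.12 and -3.33 (median -3.79), and cow 1058 was again the highest. The log2 FC of 0.63 (standard error 0.25) had an unadjusted p of 0.0255 in limma and of 0.0325 in the exact permutation test. The limma p was 0.0587 without cow 1058, the highest with each cow left out, and 0.112 with slide as a block, where the log2 FC was 0.44. With normexp background correction the log2 FC was 0.15 (limma p of 0.551). The direction of NR1H3 differed between slides. The brightest probe was higher in REST on slides 1 and 3 (by 0.79 and 0.91) and lower on slide 2 (-0.59), where the only CONT cow was 9040, the highest of its diet. The other probes did the same, with 0.92, -0.60 and 0.71 for the second and 0.86, -0.22 and 0.63 for the third on slides 1, 2 and 3.

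Markers of phagocytes were high in some of the cows with high NR1H3. The average log2 signal of the macrophage and monocyte markers was 2.33 in cow 1058, 1.68 in cow 0078 and 1.25 in cow 1018, against 1.11 to 1.43 in CONT, where cow 9040 was the highest, and 0.57 to 1.65 in the other REST cows. That of the neutrophil markers was 0.16 in cow 1058, -0.062 in cow 0078 and -0.84 in cow 1018, against -1.37 to 0.15 in CONT, with cow 9040 again the highest, and -2.20 to -0.68 in the other REST cows. The summed signal used above gave a different order for macrophage and monocyte markers. It was 58.5 in cow 1058, 39.1 in cow 0078 and 30.8 in cow 1018. CONT went from 31.2 to 46.9, with cow 8027 the highest and cow 9040 at 37.1. For neutrophil markers the sums were 197, 97.5 and 98 in these REST cows. CONT went from 22 to 178, with cow 9040 the highest. Both measures took the 8 macrophage and monocyte markers measured on all arrays. By diet, 4 of 9 macrophage and monocyte markers and 6 of 12 neutrophil markers had a higher mean in REST, and none had an unadjusted p under 0.05. All 9 macrophage and monocyte markers and 8 of the 12 neutrophil markers were well above background on every array. The part of these cells in the NR1H3 values was not tested.

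PPARGC1A, the coactivator that ESRRA and the PPARs share, was high in 1 cow. The brightest probe had log2 signals of -3.13, -2.93, -2.93, -2.68, -2.01 and -1.30 in CONT and -2.74, -2.74, -2.54, -2.32, -1.51 and 0.37 in REST. REST cow 1015 stood at 0.37, and the other 5 REST cows lay within the CONT range. The log2 FC of 0.58 (standard error 0.52, 95% interval -0.54 to 1.71) had a limma p of 0.283 and p = 0.361 in the exact permutation test, and it fell to 0.13 without cow 1015. It was 0.34 with normexp background correction and 0.33 as the mean over the probes.

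The high value of cow 1015 appeared on a second PPARGC1A probe. That probe was well above background in 1 CONT and 2 REST cows, and cow 1015 read -2.18 there, while the other 11 cows read -6.15 to -4.46. The Pearson r of both probes was 0.91 after removal of the diet means (permutation p of 0.00245, adjusted p of 0.00898) and 0.66 without the cows farthest from the median, 0015 and 1015, and the Spearman rho of 0.59 had a permutation p of 0.0665 and an adjusted p of 0.244. The third PPARGC1A probe stayed near background on all arrays and read -4.57 in this cow, within the range of the others. The summed signal of the skeletal muscle markers was 2.95 in cow 1015 and 1.92 to 4.98 over all cows, with 4 of the 8 markers well above background on every array, and their part in the PPARGC1A value was not tested. For ESRRA the same cow was the highest of the 12 on the brighter probe (2.02) and within the REST range on the other.

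NRF1 (nuclear respiratory factor 1), which binds promoters of respiratory chain genes, had a higher mean in REST without passing the test. The log2 signal was -3.12, -2.92, -2.62, -2.26, -2.01 and -1.82 in CONT and -3.09, -2.19, -1.95, -1.94, -1.84 and -1.51 in REST. REST cow 1058, the highest cow for NR1H3, was the second lowest for NRF1. The log2 FC was 0.37 (standard error 0.29, limma p of 0.226 and p = 0.249 in the exact permutation test). It rose to 0.57 without cow 1058 (limma p of 0.0431) and was 0.24 without CONT cow 9040. With normexp background correction it was 0.17 (limma p of 0.529).

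TFAM, which packages and transcribes mitochondrial DNA, showed no detectable difference. Log2 signals went from -2.33 to -1.81 in CONT (median -2.14). In REST they went from -2.42 to -1.75 (median -1.97), where 5 of the 6 cows lay between -1.98 and -1.75 while cow 0078 was lowest of all. The log2 FC was 0.096 (standard error 0.16, limma p of 0.558), and its 95% interval excludes a FC above 1.36 or below 0.842. Within the slides the differences were -0.14, -0.016 and -0.051, so that the sign turned when slide was taken into account.

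**Figure D3:**
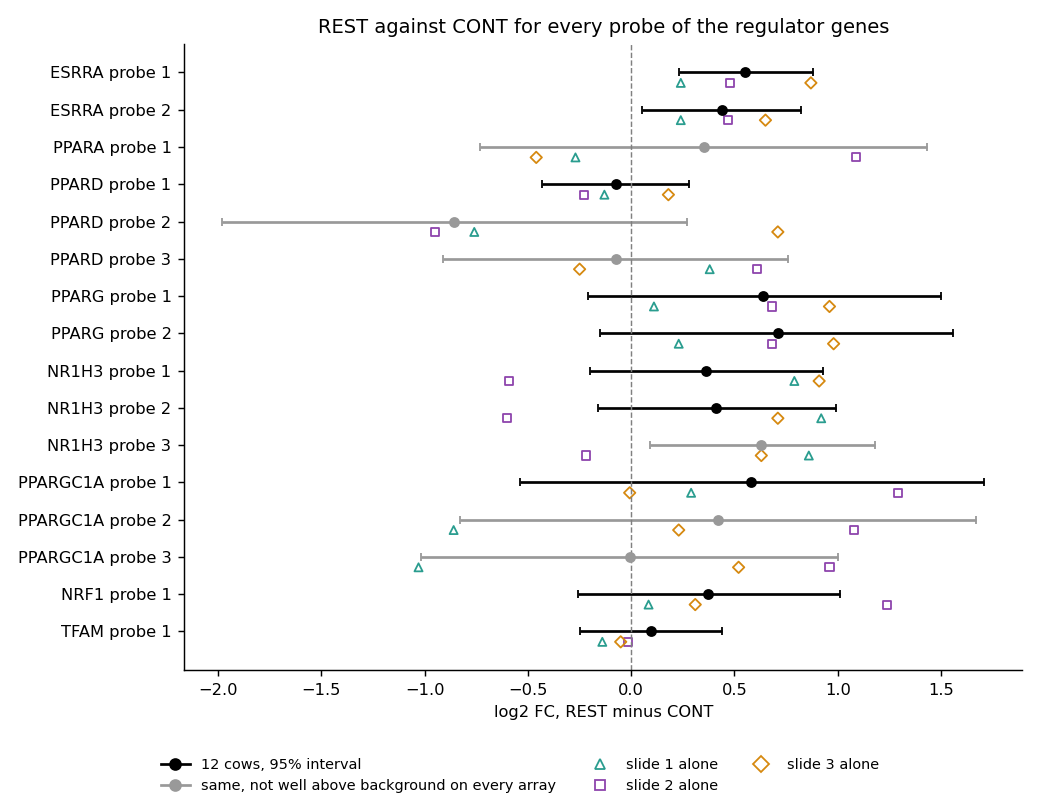
Log2 FC of REST against CONT for the 16 probes, with 95% intervals over the 12 cows (circles, gray where the probe was not well above background on every array) and the difference within each slide (open symbols). The intervals of both ESRRA probes and of NR1H3 probe 3 lie above 0, and the symbols of NR1H3 fall on both sides of 0.

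No pair of regulators was shown to vary together from cow to cow. Among the 28 pairs of the 8 genes, no correlation over the 12 cows passed 0.05 after Benjamini-Hochberg adjustment, and 2 had an unadjusted permutation p under 0.05 for Pearson r. NR1H3 and NRF1 were opposed after the diet means were removed (r -0.74, permutation p = 0.00677, adjusted p = 0.190, rho -0.62, permutation p = 0.0385, adjusted p = 0.542). The r was -0.60 without the cows farthest from the median of NR1H3 (0078 and 1058) and -0.82 with slide also removed. PPARA and PPARG had an r of 0.56 (permutation p = 0.0246, adjusted p = 0.345) and a rho of 0.57 (permutation p = 0.0581, adjusted p = 0.542), but PPARA was hardly above background. ESRRA and its coactivator PPARGC1A had an r of 0.23 and a rho of 0.007 (permutation p = 0.445 and 0.991). The r of ESRRA and PPARG was 0.35, and it turned to -0.45 without cows 8027 and 1015.

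Genes with the most similar profile over the 12 cows were sought among 9001 genes well above background on every array, as a description without a test. For ESRRA they were RALB (Pearson r 0.86), TMEM132A (0.85), PDK4 (0.84), CADM3 (0.83) and SHE (0.80). The diet difference is part of these values, and with the diet means removed they were 0.62, 0.70, 0.50, 0.55 and 0.49. For PPARG they were FABP4 (0.97), GTSE1 (0.96), LPAR6 (0.95), MGAT1 (0.95) and TIMP4 (0.94), with 0.92, 0.89, 0.84, 0.90 and 0.82 when cow 8027 was left out. FABP4, a fatty acid carrier of fat cells and endothelium, is a known PPARG target, and its log2 signal was 2.87 in cow 8027 and 5.78 to 7.92 in the other 11 cows. For PPARGC1A they were TMCC1 (0.85), EOGT (0.80), PPIA (0.78), TMED1 (0.78) and EFNA5 (0.78). Without cow 1015 these values became 0.55, 0.64, 0.39, 0.82 and 0.71.

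The genes on which these regulators act were counted in lists. Of 35 measured PPAR targets, 27 had a higher mean in REST, against 43.5% of all named genes. Of the 35, 4 had an unadjusted p under 0.05 in limma and were higher, against 1.63% of all named genes. None of the 35 was lower with such a p, and none was called after adjustment. The median log2 FC of the list was 0.12. The targets with the lowest p were PDK4, SLC25A20 and ANGPTL4, and CPT1B, the fourth, is named after its value was seen. PDK4 and SLC25A20 are among the genes the study selected on these arrays.

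PDK4 blocks the entry of pyruvate into the citric acid cycle and is a target of both PPARs and ERRs. Its brightest probe ranged from 2.36 to 3.58 in CONT and from 4.08 to 7.00 in REST, without overlap (log2 FC 2.23, standard error 0.46, unadjusted p of 0.00036 and Westfall-Young adjusted p of 0.94 in limma). SLC25A20, the carrier of acylcarnitines into mitochondria, averaged 1.53 ± 0.27 in CONT and 2.27 ± 0.35 in REST (log2 signal, SD, n = 6 each). The difference of 0.74 (standard error 0.19) had an unadjusted p of 0.0023 in limma, and 5 of 6 REST cows were above every CONT cow. ANGPTL4, an inhibitor of lipoprotein lipase, had a log2 FC of 1.83 (standard error 0.59, unadjusted p of 0.0085), with 3 of 6 REST cows above every CONT cow. CPT1B, which loads long fatty acids onto carnitine, had a log2 FC of 0.76 (standard error 0.35, unadjusted p of 0.0465). This p was 0.109 without REST cow 1015 and 0.0948 with slide as a block, and the exact permutation test gave p = 0.0714. ACADVL, the next by limma p and also named after its value was seen, had a log2 FC of 0.40 (standard error 0.19). Its limma p was 0.0567 and its p in the exact permutation test was 0.0173 (not adjusted). The share of all named genes under 0.05 in the exact test was not computed, here or for the genes below.

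The ERR targets, largely enzymes of the citric acid cycle and subunits of the respiratory chain, showed no such count. A higher mean in REST was found for 16 of the 38 measured genes, against 43.5% of all named genes. PDK4 was the only one with an unadjusted p under 0.05. The median log2 FC was -0.033, close to the -0.034 of all named genes. Without CONT cow 8027 a higher mean was found for 9 of the 38, and the median was -0.091. The median over all probes was -0.0225 with all cows and -0.0485 without this cow. After PDK4 the lowest p belonged to CA5B, a mitochondrial carbonic anhydrase (log2 FC 0.91, standard error 0.48, limma p of 0.082), and ETFB, a subunit of the electron carrier for fatty acid oxidation (0.25, standard error 0.16, limma p of 0.147).

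The list of mitochondrial biogenesis holds the GABP subunits and partners and targets of NRF1 and TFAM. Of its 22 measured genes 4 had a higher mean in REST, against 43.5% of all named genes, and none had an unadjusted p under 0.05 in limma. Their median log2 FC was -0.11. The lowest p belonged to TFB2M, a mitochondrial transcription factor (log2 FC -0.28, standard error 0.15, limma p of 0.0906), MTERF3 (-0.30, standard error 0.23) and GABPA, the other nuclear respiratory factor (-0.18, standard error 0.14). For TFB2M 5 of the 6 REST cows were below every CONT cow, and the exact permutation test gave p = 0.026 (not adjusted).

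Of 15 measured LXR targets, 3 had a higher mean in REST and none had an unadjusted p under 0.05, with a median log2 FC of -0.081. Of these genes 4 stayed near background on all arrays, among them ABCG5, which had the lowest p and is given no fold. LPCAT3, which remodels membrane phospholipids, differed by 0.33 on the log2 scale (standard error 0.27), and APOE, a lipoprotein component, by 0.21 (standard error 0.18).

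The partners and controls of the regulators showed no gene with an unadjusted p under 0.05 in limma. In the 11 measured coactivators 4 had a higher mean in REST (median log2 FC -0.07), and the lowest p belonged to SMARCD1, which was above background in 4 CONT and 2 REST cows, SMARCD3 (log2 FC 0.28, standard error 0.23) and CREBBP (0.23, standard error 0.19). PPRC1, a relative of PPARGC1A, had a log2 FC of -0.093 (standard error 0.28). In the 8 measured corepressors 3 had a higher mean (median -0.077). HDAC3, the deacetylase of the NCOR complex, had a log2 FC of -0.22 (standard error 0.12, limma p of 0.0985) with 4 of 6 REST cows below every CONT cow, and p = 0.013 in the exact permutation test (not adjusted). It was followed by TRIM28 (-0.20, standard error 0.15) and HDAC2 (-0.18, standard error 0.18).

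Of 18 measured upstream regulators, such as the subunits of AMP kinase and the sirtuins, 8 had a higher mean in REST (median log2 FC -0.019). The lowest p belonged to MEF2C (log2 FC 0.30, standard error 0.20), YY1 (-0.12, standard error 0.13) and SIRT1, the deacetylase of PPARGC1A (-0.16, standard error 0.17). Of 12 measured nuclear receptor relatives, 6 had a higher mean (median -0.0025), and HNF4A, which was well above background in 2 CONT cows and no REST cow, had the lowest p. RARA followed with a log2 FC of 0.30 (standard error 0.22) and NR2F1 with -0.23 (standard error 0.18).

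**Figure D4:**
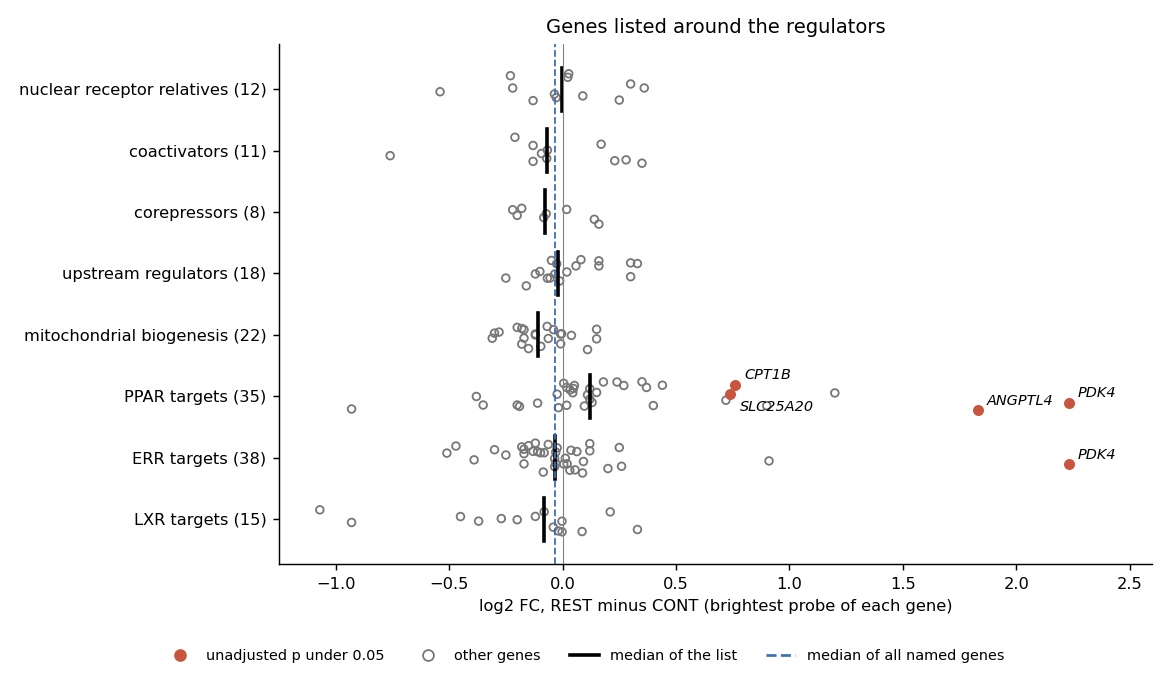
Log2 FC of REST against CONT for the genes of 8 lists around the regulators, those near background included, with the number of measured genes in parentheses, filled points for an unadjusted p under 0.05, a black line for the median of each list and a dashed line for the median of all named genes (-0.034). The filled points are 4 PPAR targets, of which PDK4 is also listed among the ERR targets.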

How the data were processed

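The deposited files hold spot intensity after the background correction that the authors made with Feature Extraction, not normalized between arrays. The matrix of the series holds the same values. Control spots and outlier spots were removed, the 75th percentile of each array was subtracted on the log2 scale, and spots of a probe were averaged. Diets were compared with limma 3.58.1 (R 4.3.3) over all 43653 probes without a filter. P-values are two-sided. Westfall-Young values used 100 of 462 distinct regroupings of the cows (lowest value 0.01), with Benjamini-Hochberg values beside them. The exact permutation test enumerated all regroupings, and correlations used 100000 reorderings within diet.

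The probe with the highest mean stands for a gene. In each of 8 lists the genes with the 3 lowest p-values were named, and for ESRRA, PPARG and PPARGC1A the 5 most similar genes. The regulators and lists were chosen with earlier results of these data known. Probes were named through the RefSeq table (ARS-UCD2.0), whose assembly differs from that of the array, so that no positions are given. The procedure was tested on simulated data. Alternatives were Benjamini-Hochberg adjustment, quantile normalization, normexp (offset 50), the series matrix, a filter on dim probes, outlier spots kept, slide as a block, an intensity trend, the mean over the probes of a gene, and leaving out each cow. Replicates are separate cows.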

Additional observations from a re-analysis of the deposited data

Results flagged for a closer look

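Of the 32 sets of 6 cows (16 probes in each diet), 1 held a cow that stood apart from the rest by Dixon's criterion, while about 1 in 20 would do so by chance. TFAM read -2.42 in REST cow 0078, and the other 5 REST cows read -1.98 to -1.75. Cow 0078 was the only REST cow on slide 1, where the 3 CONT cows read -2.33 to -2.23.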

How the results depend on the processing

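No regulator was called under any of the alternatives, by the Westfall-Young or the Benjamini-Hochberg adjustment. By its brighter probe ESRRA kept its direction and an unadjusted p under 0.05 in all 20 alternatives (limma p of 0.000539 to 0.00736), with a log2 FC of 0.48 to 0.62 over the cows left out. The count of regulators with an unadjusted p under 0.05 was 1 to 2 over the cows left out, with PPARG as the second gene without CONT cow 0015 and NRF1 without REST cow 1058. Signs turned for TFAM with slide as a block (-0.068) and for PPARD without REST cow 0049, where its log2 FC over the cows left out was -0.12 to 0.015. The other regulators kept their sign in all alternatives that gave them a value, and PPARA was removed by the filter on dim probes. Over all alternatives the count of PPAR targets with an unadjusted p under 0.05 and a higher mean in REST was 3 to 5. Without REST cow 0078 the counts with a higher mean in REST and such a p were 1 nuclear receptor relative, 1 coactivator and 2 ERR targets, the last also without REST cow 1058. Without REST cow 1015, 1 gene of mitochondrial biogenesis had such a p and a lower mean. For LXR targets that count was 1 with quantile normalization and without CONT cow 9040, 0015 or 8027 or REST cow 0078 or 1058. Differences of PPARA, of NR1H3 probe 3 and of the fainter probes of PPARD and PPARGC1A are limited by signal near background, and with 6 cows per diet the intervals of PPARG and PPARGC1A include no change as well as a FC of 2.83 and 3.28.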
